A study of Homo sapiens with 8 samples.

Results

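The unfolded protein response and the integrated stress response were followed through 40 genes in CUTLL1 cells. CUTLL1 is an established line from a human T-cell acute lymphoblastic leukemia, and its NOTCH1 signalling is constitutively on. The genes were listed by name and by arm, and comprised 15 endoplasmic reticulum (ER) chaperones and folding enzymes, 9 genes of ER degradation and translocation, 5 sensors and their factors, and 11 genes of the ATF4/CHOP arm. Among probe sets assigned to 1 gene only, the one with the highest mean intensity stood for each gene, which gave 39 of the 40 a value, out of 19775 genes measured in the series. SYVN1, the ubiquitin ligase that SEL1L supports, is not analysed here because its probe set also lists MIR6751. The 4 groups of cells were held for 48 h in DMSO vehicle, in the gamma-secretase inhibitor PF-03084014 at 1 microM, in the glucocorticoid dexamethasone at 1 microM, or in both compounds together at 1 microM each (the combination). Each group had 2 arrays, called a first and a second replica, and the labels do not say whether these were separate cultures, so p-values measure the spread between these samples, which may be technical. All groups are the same single cell line, and all 3 treatments are set against the same 2 DMSO arrays.

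Values are log2 of the deposited intensity, with intensities below 16 set to 16. None of the 39 genes was at that floor on any array. Changes are given as the difference of group means ± the standard error of a limma fit over all 8 arrays, n = 2 arrays per group throughout. The words rose and fell are kept for genes that were called, meaning that the two-sided limma p, adjusted by Benjamini-Hochberg over the 19775 genes of the contrast, was under 0.05.

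The arrays had median intensities of 61.8 to 63.9, except 76.3 on the second combination array, and correlated at 0.991 to 0.993 between replicates, except 0.980 for the combination. Between the replicates of a group, the 39 genes differed with an SD of 0.289 in DMSO, 0.243 in PF-03084014, 0.116 in dexamethasone and 0.348 in the combination. The 3′ over 5′ signal ratios of the control probe sets were 0.932 to 1.04 for GAPDH and 1.82 to 2.27 for ACTB. The PF-03084014 arrays, at 0.932 and 0.953 for GAPDH, were below the other 6, and at 1.82 and 1.85 for ACTB they were below both DMSO and both dexamethasone arrays, while the combination overlapped DMSO in both ratios; the part of these ratios in the results was not tested. Of 8 T-lineage markers, 8 exceeded an intensity of 100 on every array, against 1 of 4 B-lineage markers (CD79A), 1 of 5 plasma cell markers (MZB1), 1 of 5 myeloid markers (ITGAM), 0 of 4 erythroid and megakaryocyte markers and 0 of 7 epithelial and stromal markers. The treatments could be read in their known targets: HES1, a NOTCH target, changed by -1.74 ± 0.15 with PF-03084014 and by 0.02 ± 0.15 with dexamethasone, and TSC22D3, a glucocorticoid receptor target, by -0.27 ± 0.082 and 3.34 ± 0.082.

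The unfolded protein response matches the folding capacity of the ER to its load. IRE1 (gene ERN1) splices the XBP1 messenger, ATF6 is cut to release a transcription factor, and PERK (EIF2AK3) phosphorylates the translation factor eIF2. XBP1 and ATF6 drive genes of chaperones and of ER degradation. The integrated stress response joins PERK with other eIF2 kinases, among them GCN2 (EIF2AK4), which senses lack of amino acids. Its factor ATF4 is raised mainly by translation and drives CHOP (DDIT3), TRIB3, CHAC1 and genes of amino acid uptake and synthesis. The arrays measured messenger amount only: XBP1 splicing, ATF6 cleavage, eIF2 phosphorylation and ATF4 protein were not measured here.

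The clearest movement was in the combination, where 8 of the 39 genes were called (20.5%, against 11.9% of all genes) and the arms went different ways. XBP1, with the ER degradation genes EDEM1 and SEL1L, rose. TRIB3, CEBPB and VLDLR of the ATF4/CHOP arm fell, as did the eIF2 kinase EIF2AK4 and the ER chaperone HSP90B1. The brightest HSP90B1 probe set, which also lists MIR3652 and was not used, changed by only -0.25. The 3 rises were 7.69% of the genes, against 6.42% of all genes, a share near the background, and the 5 falls were 12.8%, against 5.52%. Since these are readings of whole cultures, fewer cells of a kind and less messenger per cell cannot be told apart. With PF-03084014 alone, 1 gene was called, EDEM1, which rose (2.56%, against 0.819% of all genes called and 0.470% called higher), and this call was lost without any DMSO, PF-03084014 or dexamethasone array. With dexamethasone alone, 0 of 39 were called (against 0.101% of all genes, 0.0860% higher and 0.0152% lower). There 3 had an unadjusted p under 0.05 in the limma fit, XBP1, CHAC1 and VLDLR. With PF-03084014 such genes were more, EDEM1, EIF2AK3, SEL1L, XBP1, ERN1, TRIB3, DNAJB9, CHAC1 and CEBPB. The share of all genes under that value is not given here, so neither list is read as particular to these genes. Leaving out a single array changed the count for the combination, and left 1 group with 1 array. Without combination replicate 1 many more of all genes were called as well. A call gained in that fit is therefore not particular to these genes.

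The arms also differed in their medians over all their measured genes, called or not. In the combination the median change was -0.54 for the 11 genes of the ATF4/CHOP arm, -0.14 for the 15 chaperones, 0.19 for the 8 ER degradation and translocation genes and 0.35 for the 5 sensors and their factors, beside 0.064 for all genes. With PF-03084014 the same medians were -0.30, -0.041, 0.19 and 0.14, beside 0.018 for all genes. Dexamethasone gave -0.24, -0.096, 0.080 and 0.074, beside 0.014. In the combination 13 of the 15 chaperones and 8 of the 11 ATF4/CHOP genes were below 0, where 41.0% of all genes were. Of the 8 ER degradation and translocation genes 7 were above 0, where 58.9% of all genes were. Shifting all arrays to a common median lowered the combination's median over all genes by 0.13 and turned the split of called members from 3 higher and 5 lower to 2 higher and 6 lower, with 31.9% of all called genes higher in place of 53.8%. Under that shift 15 of the 15 chaperones were below 0 and 6 of the 8 ER degradation genes above 0. The arm medians were then -0.27 and 0.055, with -0.67 for the ATF4/CHOP arm and 0.22 for the sensors. These medians also rest on the probe set chosen for each gene. The sensor median of 0.35 was the value of ERN1, whose 2 dimmer probe sets gave -0.36 and -0.10. Over all arms, 28 of 46 other probe sets had the sign of the one used in the combination. Those on the other side of 0 included some of XBP1, SEL1L, EDEM3, DERL2 and SEC61B.

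**Figure D1:**
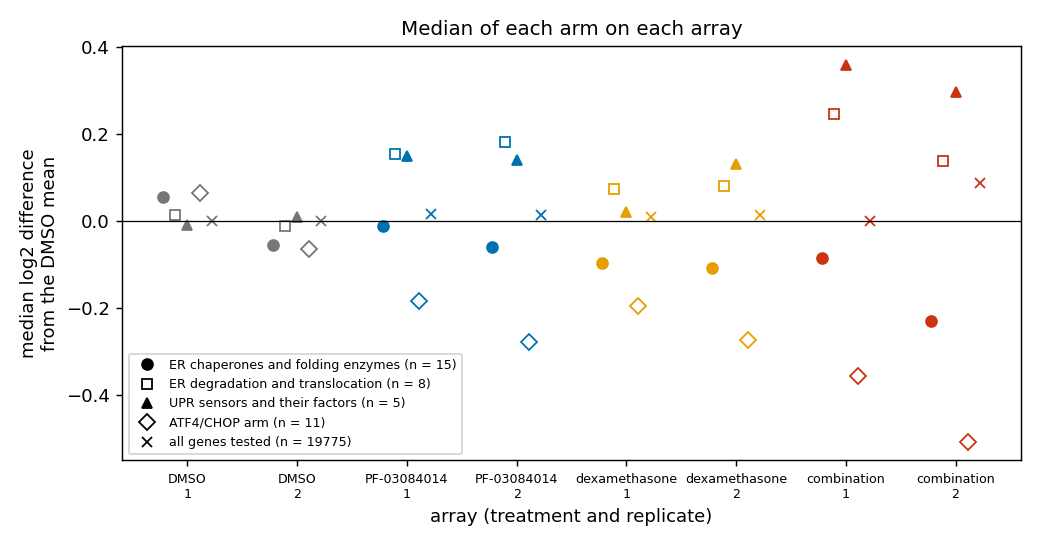
Median, over the measured genes of each arm, of the log2 difference from the DMSO mean (vertical axis) on each of the 8 arrays (horizontal axis, by treatment and replicate), with the median over all 19775 genes as crosses. The ATF4/CHOP median was 0.064 and -0.064 on the DMSO arrays and between -0.18 and -0.51 on the 6 treated arrays, and the sensor median was 0.36 and 0.30 on the combination arrays.

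**Figure D2:**
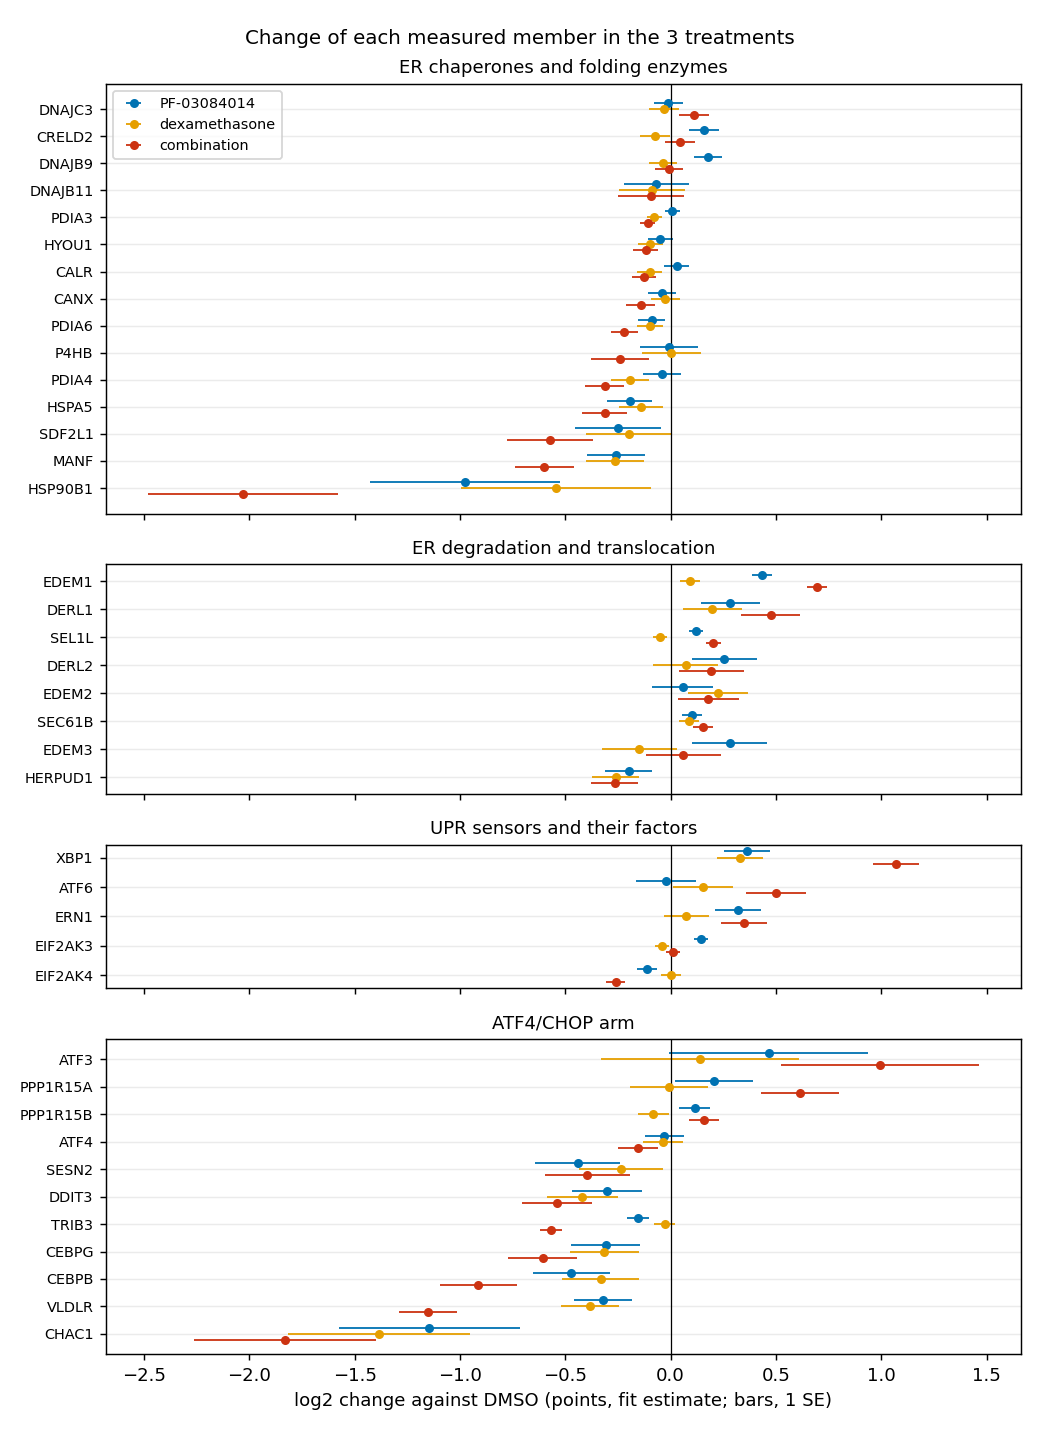
Log2 change against DMSO of the 39 measured genes, by arm, for PF-03084014, dexamethasone and the combination; points are fit estimates and bars 1 standard error, from 2 arrays per group. HSP90B1, at -2.03, had the largest negative combination value, and XBP1, at 1.07, the largest positive one. The brightest HSP90B1 probe set, not used because it also lists MIR3652, gave -0.25, and a dimmer XBP1 probe set gave -0.34.

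Because XBP1 and ATF6 act through the ER stress response element, and ATF4 through a CCAAT/enhancer-binding protein and ATF response element, the promoters of the listed genes were searched for these letters. RefSeq promoter windows (GRCh38.p14) from 250 bases before to 50 after the gene start were given for 38 of the 40 genes and 27305 genes in all, and both strands were searched. The ER stress response element, ERSE (CCAAT, then 9 bases of any kind, then CCACG), was in the window of 7 of the 38 genes (18.4%, against 0.0916% of all genes): CALR, CANX, CRELD2, HSP90B1, HSPA5, PDIA6 and XBP1. The second form, ERSE-II (ATTGG, 1 base of any kind, then CCACG), was in 3 (7.89%, against 0.0696%), HERPUD1, HYOU1 and SDF2L1. The ATF4 response element core (TGATGNAA) was in 5 (13.2%, against 4.46%), ATF3, CEBPG, CHAC1, HERPUD1 and PPP1R15B, and the unfolded protein response element core (TGACGTGG) was in 1 (2.63%, against 0.927%), HYOU1, where it overlapped an ERSE-II. The sequences shown are a choice from these genes: HSPA5, HSP90B1 and XBP1 hold ERSE, SDF2L1 and HERPUD1 hold ERSE-II, and CHAC1, CEBPG and HERPUD1 hold the ATF4 core. In the combination the printed ERSE genes lay on both sides of 0. The printed genes with ERSE-II or the ATF4 core were all below 0. ATF3 (0.99) and PPP1R15B (0.16) also hold the ATF4 core, lay above 0 and are not printed. Capitals mark the matches, read 5′ to 3′ on the strand of the gene.
HSPA5, chr9:125241376-125241424, minus strand: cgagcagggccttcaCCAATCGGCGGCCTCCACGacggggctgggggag
HSP90B1, chr12:103930201-103930354, plus strand: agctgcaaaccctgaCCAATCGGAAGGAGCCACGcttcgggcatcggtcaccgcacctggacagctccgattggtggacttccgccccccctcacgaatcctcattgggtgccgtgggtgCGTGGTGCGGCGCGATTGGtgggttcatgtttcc
XBP1, chr22:28800588-28800636, minus strand: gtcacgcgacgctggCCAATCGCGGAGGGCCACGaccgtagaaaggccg
SDF2L1, chr22:21642099-21642139, plus strand: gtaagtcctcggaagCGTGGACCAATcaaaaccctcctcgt
HERPUD1, chr16:56931951-56932050, plus strand: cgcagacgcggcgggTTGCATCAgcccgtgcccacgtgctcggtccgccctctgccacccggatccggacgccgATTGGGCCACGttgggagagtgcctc
CHAC1, chr15:40953247-40953284, plus strand: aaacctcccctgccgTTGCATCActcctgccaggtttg
CEBPG, chr19:33374056-33374093, plus strand: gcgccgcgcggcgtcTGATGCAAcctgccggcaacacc

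The matches printed lay before the gene start. The ERSE of HSPA5 was 66 to 48 bases before it, that of XBP1 52 to 34 bases before it, and those of HSP90B1 at 194 to 176 and, on the opposite strand, 89 to 71 bases before it. The 10 genes with ERSE or ERSE-II had a median combination change of -0.18, from -2.03 (HSP90B1) to 1.07 (XBP1), and 8 of the 10 were below 0. Both extremes depend on the probe set: the brightest for HSP90B1, which also lists MIR3652, gave -0.25, and a dimmer one for XBP1 gave -0.34. The 27 measured genes with a window and neither element had a median of -0.0054, with 14 below 0 and 13 above. Over all genes 41.0% were below 0. Of the carriers, 6 with ERSE and 2 with ERSE-II were chaperones or folding enzymes, an arm with 13 of 15 genes below 0. Element and arm were not separated here, so these values are not read as a trait of the element. The 5 genes with the ATF4 core had a median of -0.26, from -1.83 (CHAC1) to 0.99 (ATF3). A match to these letters is a description of the promoter and not a measured binding site.

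Among the sensors, XBP1 rose and EIF2AK4 fell in the combination, which were the 2 called of 5. XBP1, the transcription factor made active by IRE1, read 11.26 and 10.95 on the DMSO arrays, 11.43 and 11.50 with PF-03084014, 11.47 and 11.40 with dexamethasone, and 12.12 and 12.22 in the combination. The combination arrays stood above all 6 others, and those of each single compound lay above both DMSO arrays. XBP1 rose 2.10-fold in the combination, by 1.07 ± 0.109 (limma adjusted p = 0.00633). Each compound alone gave a smaller change, 0.36 ± 0.109 with PF-03084014 (adjusted p = 0.245) and 0.33 ± 0.109 with dexamethasone (adjusted p = 0.463), neither called.

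The combination also exceeded dexamethasone alone, by 0.74 ± 0.109 (limma adjusted p = 0.0257), and PF-03084014 alone, by 0.71 ± 0.109 (adjusted p = 0.0428), in XBP1. The interaction, the part of the combination's change beyond the sum of the single changes, was 0.38 ± 0.154 and was not called (adjusted p = 0.562). The call against DMSO was kept without any single array. The calls against dexamethasone and against PF-03084014 were both lost without PF-03084014 replicate 1 or 2, dexamethasone replicate 1 or 2, or combination replicate 2, with differences of 0.69 to 0.78 (adjusted p 0.0693 to 0.145) and 0.66 to 0.74 (adjusted p 0.115 to 0.228). A second, dimmer XBP1 probe set read 5.63 and 5.39 in DMSO and 5.16 and 5.18 in the combination, a change of -0.34. Averaging both probe sets gave 0.36 (adjusted p = 0.111). XBP1 is also a plasma cell factor: the summed intensity of the 5 plasma cell markers was 5190 to 5334 in DMSO and 4160 to 5859 in the combination. Of these 5 markers 1 was called (20.0%, against 11.9% of all genes), PRDM1, which rose by 0.60 ± 0.128 (limma adjusted p = 0.0413). PRDM1 read 5.88 and 5.85 in DMSO and 6.48 and 6.45 in the combination, an intensity under 100 on every array. SDC1, MZB1 and JCHAIN were not called against DMSO or against dexamethasone, and their combination arrays overlapped DMSO. PRDM1 and IRF4 were also higher in the combination than with dexamethasone, by 0.79 ± 0.128 (adjusted p = 0.0305) and 1.52 ± 0.294 (adjusted p = 0.0448), and IRF4 was not called against DMSO (0.71 ± 0.294, adjusted p = 0.189). The part of these markers in the XBP1 result was not tested.

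EIF2AK4, the amino acid sensing kinase GCN2, read 10.22 and 10.27 in DMSO, 10.13 and 10.13 with PF-03084014, 10.20 and 10.29 with dexamethasone, and 9.97 and 9.99 in the combination. The combination arrays were below all others and the dexamethasone arrays spanned the DMSO range. EIF2AK4 fell by 0.26 on the log2 scale in the combination (standard error 0.0461, limma adjusted p = 0.0258), and the combination was lower than dexamethasone alone by the same amount, -0.26 ± 0.0461 (adjusted p = 0.0362). The change with PF-03084014 was -0.11 ± 0.0461 (adjusted p = 0.401). A second EIF2AK4 probe set gave -0.71 in the combination. The call against DMSO was lost without either DMSO array or either PF-03084014 array (-0.29 to -0.24, adjusted p 0.066 to 0.116), and that against dexamethasone without any array except combination replicate 1 (-0.31 to -0.22, adjusted p 0.0672 to 0.164).

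The other 3 sensors were not called in any contrast. ATF6 read 9.33 and 9.61 in DMSO, 9.39 and 9.51 with PF-03084014, 9.54 and 9.71 with dexamethasone, and 9.83 and 10.11 in the combination, where the change was 0.50 ± 0.142 (limma adjusted p = 0.0879) and the arrays did not overlap DMSO. Its call was gained without combination replicate 1, at 0.64 (adjusted p = 0.0427), and 3 dimmer ATF6 probe sets gave -0.03 to 0.18. ERN1, which encodes IRE1, read 8.21 and 8.17 in DMSO, 8.39 and 8.63 with PF-03084014, 8.21 and 8.32 with dexamethasone, and 8.59 and 8.49 in the combination. That is 0.32 ± 0.108 with PF-03084014 (adjusted p = 0.299), 0.07 ± 0.108 with dexamethasone and 0.35 ± 0.108 in the combination (adjusted p = 0.106). Its 2 dimmer probe sets gave -0.36 and -0.10 in the combination. EIF2AK3, which encodes PERK, read 10.57 and 10.59 in DMSO, 10.73 and 10.72 with PF-03084014, 10.56 and 10.52 with dexamethasone, and 10.59 and 10.60 in the combination. Its PF-03084014 arrays lay above all the others, at a change of 0.14 ± 0.0328 (limma adjusted p = 0.147). The combination was near DMSO, at 0.01 ± 0.0328.

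**Figure D3:**
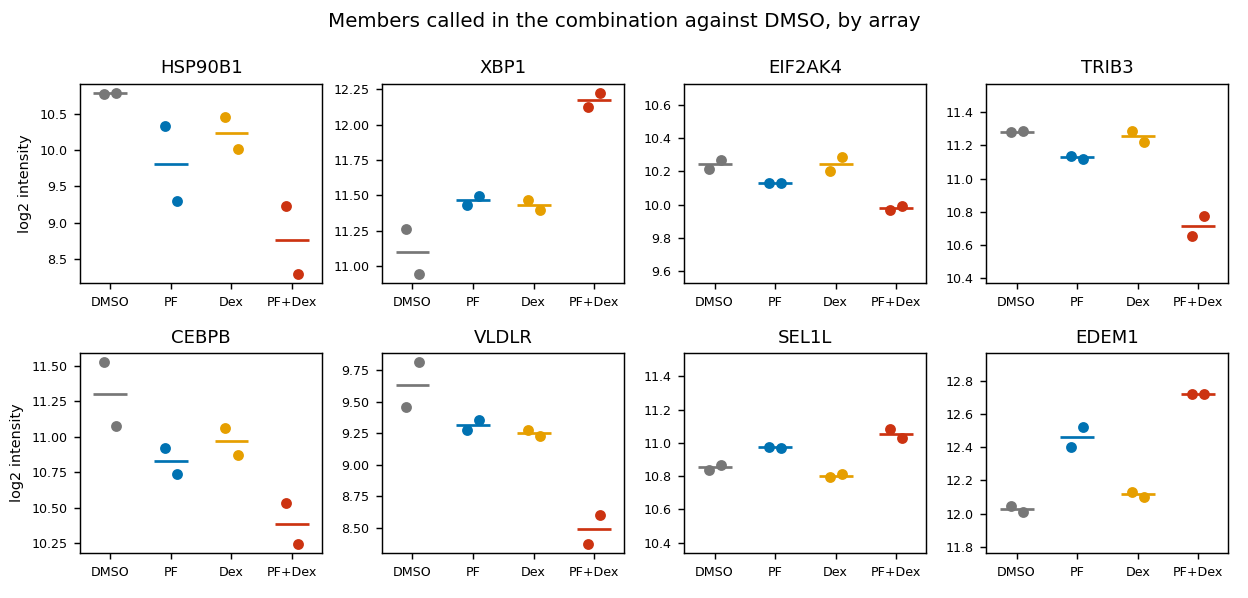
Log2 intensity (vertical axis) on each array of the 8 genes called in the combination against DMSO, by group (PF, PF-03084014; Dex, dexamethasone; PF+Dex, the combination); points are arrays and bars group means, and the vertical ranges differ between panels. The combination arrays of XBP1 (12.12 and 12.22) and TRIB3 (10.65 and 10.78) stand apart from the other 6 arrays, and those of EDEM1 (12.72 and 12.72) lie above PF-03084014 (12.40 and 12.52).

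Of the 11 genes of the ATF4/CHOP arm, 3 were called in the combination (27.3%, against 11.9% of all genes), all falls: TRIB3, CEBPB and VLDLR. Both combination arrays lay above both DMSO arrays in 3 others, ATF3, PPP1R15A and PPP1R15B (27.3%, against 29.1% of all genes, a share near the background). TRIB3, a pseudokinase induced by ATF4 and CHOP that restrains them in turn, read 11.28 and 11.29 in DMSO, 11.14 and 11.12 with PF-03084014, 11.29 and 11.22 with dexamethasone, and 10.65 and 10.78 in the combination. The combination arrays were below all 6 others. TRIB3 fell 1.48-fold, by 0.57 on the log2 scale (standard error 0.0519, limma adjusted p = 0.00502), against -0.15 ± 0.0519 with PF-03084014 (adjusted p = 0.302) and -0.03 ± 0.0519 with dexamethasone (adjusted p = 0.967). It also fell against dexamethasone alone, by 0.54 (adjusted p = 0.0136), and against PF-03084014 alone, by 0.41 (adjusted p = 0.0286).

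TRIB3 had the smallest adjusted p of the 39 genes in the interaction, -0.39 ± 0.0733 (limma adjusted p = 0.319), and 0 of 39 were called there, against 0.00% of all genes, with an unadjusted p under 0.05 for TRIB3, SEL1L and EDEM1. The TRIB3 call against DMSO was kept without any single array. The call against dexamethasone was lost without either dexamethasone array (-0.58 to -0.50, adjusted p 0.0852 to 0.103), and that against PF-03084014 without any DMSO, PF-03084014 or dexamethasone array (-0.42 to -0.41, adjusted p 0.0732 to 0.171). A dimmer TRIB3 probe set gave 0.35 in the combination, with arrays at 6.75 and 6.84 in DMSO and 6.59 and 7.70 in the combination. The mean of both probe sets was -0.11 (adjusted p = 0.785).

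VLDLR, a lipoprotein receptor that ATF4 induces, read 9.46 and 9.81 in DMSO, 9.28 and 9.36 with PF-03084014, 9.28 and 9.23 with dexamethasone, and 8.37 and 8.60 in the combination. It fell 2.22-fold, by 1.15 on the log2 scale (standard error 0.138, limma adjusted p = 0.00971), a call kept without any single array, and had 1 probe set. All single-compound arrays lay below both DMSO arrays, at changes of -0.32 ± 0.138 and -0.38 ± 0.138 that were not called. VLDLR was also lower in the combination than with dexamethasone (-0.77 ± 0.138, adjusted p = 0.0388) and not called against PF-03084014 (-0.83 ± 0.138, adjusted p = 0.0507). The call against dexamethasone was lost without PF-03084014 replicate 1 or 2, dexamethasone replicate 1 or 2, or combination replicate 2 (-0.88 to -0.74, adjusted p 0.0652 to 0.191).

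CEBPB, a bZIP factor that pairs with CHOP, read 11.52 and 11.08 in DMSO, 10.92 and 10.74 with PF-03084014, 11.06 and 10.87 with dexamethasone, and 10.53 and 10.24 in the combination. Every treated array was below both DMSO arrays, and the DMSO arrays themselves differed by more than those of any treatment. CEBPB fell 1.88-fold in the combination, by 0.91 (standard error 0.182, limma adjusted p = 0.0355). The single compounds gave -0.47 ± 0.182 (adjusted p = 0.365) and -0.33 ± 0.182 (adjusted p = 0.724). The call was lost without DMSO replicate 1, any PF-03084014 or dexamethasone array, or combination replicate 2 (-0.91 to -0.69, adjusted p 0.0784 to 0.117).

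The other genes of the arm were not called. CHAC1, a glutathione-degrading enzyme and target of ATF4, was dim, and its intensities before the log2 step are given: 129 and 59.7 in DMSO, 51.5 and 30.7 with PF-03084014, 32 and 35.4 with dexamethasone, and 26.9 and 22.7 in the combination. The combination readings were near the 18.6 to 23.4 that was the median of 27 probe sets for bacterial genes absent from the spike-in mix, so the size of the change is not settled. Its combination change was -1.83 ± 0.432 (limma adjusted p = 0.0552), with -1.14 ± 0.432 for PF-03084014 and -1.38 ± 0.432 for dexamethasone. CHAC1 was called with arrays at a common median (-1.96, limma adjusted p = 0.0228) and with the replicate block (adjusted p = 0.0448). Under quantile normalization or a floor of 32 it was not called. Without DMSO replicate 2 the combination change was -2.39. All 6 treated arrays lay below both DMSO arrays.

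DDIT3, which encodes CHOP, read 9.74 and 9.31 in DMSO, 9.35 and 9.11 with PF-03084014, 9.16 and 9.06 with dexamethasone, and 9.07 and 8.91 in the combination. The changes were -0.30 ± 0.166, -0.42 ± 0.166 and -0.54 ± 0.166 (limma adjusted p = 0.106 for the combination). CEBPG, the dimer partner of ATF4 whose promoter match is printed above, read 10.53 and 10.41 in DMSO, 10.21 and 10.12 with PF-03084014, 10.17 and 10.15 with dexamethasone, and 10.11 and 9.61 in the combination (-0.61 ± 0.163, adjusted p = 0.0783). SESN2, a stress-induced inhibitor of mTORC1, had combination arrays of 8.70 and 8.62 below the DMSO arrays of 9.36 and 8.74 (-0.39 ± 0.201, adjusted p = 0.267). The DMSO arrays of DDIT3, CHAC1, SESN2 and CEBPB all had replicate 1 above replicate 2. So had those of HSPA5, MANF, SDF2L1, DNAJB11, HERPUD1 and XBP1 in other arms, while VLDLR, ATF3, ATF6 and EDEM3 were among those in the reverse order. Over all 39 genes the median difference from the DMSO mean was 0.041 on DMSO replicate 1 and -0.041 on replicate 2. All treatments are set against these arrays, and the part of this difference in the results was not tested.

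ATF4 itself, the factor at the head of the arm, was nearly level: 12.91 and 12.86 in DMSO, 12.89 and 12.83 with PF-03084014, 12.89 and 12.81 with dexamethasone, and 12.87 and 12.60 in the combination. The changes were -0.03, -0.04 and -0.15, each ± 0.0945, and the combination was called only without combination replicate 1, at -0.29 (limma adjusted p = 0.0237).

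Above DMSO in the combination, at a share of the arm near the background, were ATF3, PPP1R15A (GADD34) and PPP1R15B. PPP1R15A and PPP1R15B are eIF2 phosphatase subunits, which reverse the phosphorylation of eIF2. ATF3, a bZIP factor of the stress response, read 5.39 and 6.06 in DMSO, 5.92 and 6.46 with PF-03084014, 5.70 and 6.02 with dexamethasone, and 6.14 and 7.30 in the combination (0.99 ± 0.471, limma adjusted p = 0.239). Its combination arrays differed by more than the change itself, and its other probe sets gave 0.65 and -0.50. PPP1R15A read 7.13 and 7.05 in DMSO, 7.46 and 7.14 with PF-03084014, 7.10 and 7.07 with dexamethasone, and 7.52 and 7.89 in the combination (0.61 ± 0.184, adjusted p = 0.0997), and its second probe set gave 0.43. It was called without combination replicate 1, at 0.80 (adjusted p = 0.0349). PPP1R15B changed by 0.16 ± 0.0728 (adjusted p = 0.226).

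**Figure D4:**
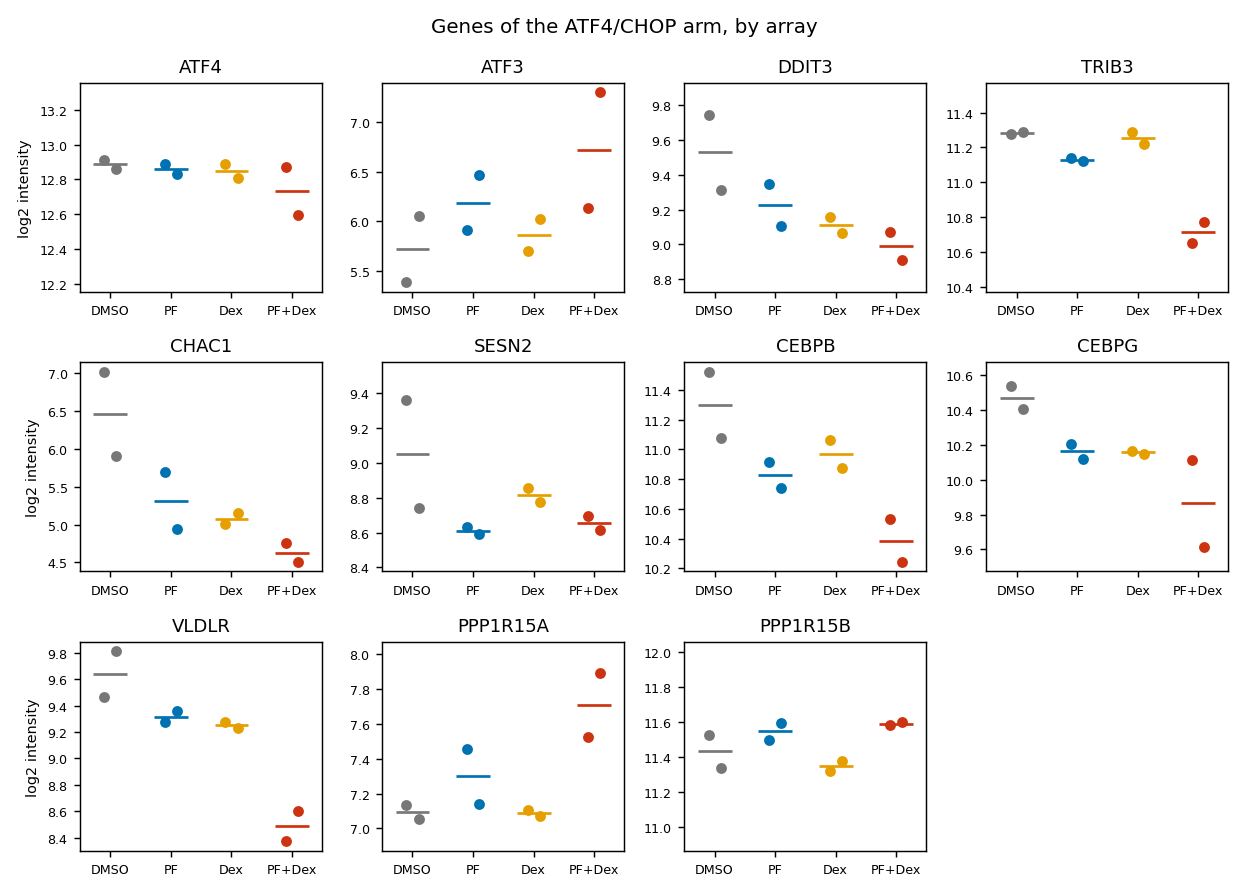
Log2 intensity (vertical axis) on each array of the 11 genes of the ATF4/CHOP arm, by group (PF, PF-03084014; Dex, dexamethasone; PF+Dex, the combination); points are arrays, bars group means, and vertical ranges differ between panels. The combination arrays lie below both DMSO arrays in DDIT3, CHAC1, SESN2 and CEBPG, which were not called, as in TRIB3, CEBPB and VLDLR, which were, and above both in ATF3, PPP1R15A and PPP1R15B, not called. The share below is 63.6%, against 21.5% of all genes, and the share above 27.3%, against 29.1%.

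Of the 15 chaperones and folding enzymes, 1 was called in the combination, HSP90B1 (6.67%, against 11.9% of all genes). Apart from HSP90B1 their changes lay between -0.60 (MANF) and 0.11 (DNAJC3). In 10 of the 15 (66.7%) both combination arrays were below both DMSO arrays, as in 21.5% of all genes, and in 13 of the 15 (86.7%) both were below both PF-03084014 arrays, as in 20.1% of all genes. Over all 39 genes, 19 were below DMSO in this way (48.7%) and 10 above (25.6%, against 29.1% of all genes), and 22 were below PF-03084014 (56.4%) and 6 above (15.4%, against 23.2%).

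HSPA5, which encodes BiP, the main ER chaperone and a standard gauge of the response, read 12.72 and 12.42 in DMSO, 12.39 and 12.37 with PF-03084014, 12.46 and 12.41 with dexamethasone, and 12.33 and 12.19 in the combination. Every treated array except dexamethasone replicate 1 was below both DMSO arrays, and the highest reading was a DMSO array. The changes were -0.19, -0.14 and -0.31, each ± 0.106, none called (limma adjusted p = 0.128 for the combination). A second HSPA5 probe set gave -0.37, -0.37 and -0.42.

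MANF, a secreted factor retained with BiP, read 12.39 and 12.10 in DMSO, 12.03 and 11.95 with PF-03084014, 11.99 and 11.97 with dexamethasone, and 11.81 and 11.48 in the combination. Its change of -0.60 ± 0.14 missed the call (limma adjusted p = 0.0531), and was called without combination replicate 1, at -0.77 (adjusted p = 0.0209). SDF2L1, which works with BiP's co-chaperones, read 10.93 and 10.63 in DMSO, 10.55 and 10.51 with PF-03084014, 10.64 and 10.53 with dexamethasone, and 10.50 and 9.92 in the combination (-0.57 ± 0.204, adjusted p = 0.143). It was called without combination replicate 1, at -0.86 (adjusted p = 0.0188). All 6 treated MANF arrays were below both DMSO arrays, as were those of SDF2L1 apart from dexamethasone replicate 1.

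The protein disulfide isomerases PDIA4 and PDIA6, which form and shuffle disulfide bonds, changed by -0.31 ± 0.0914 (limma adjusted p = 0.0938) and -0.22 ± 0.0635 (adjusted p = 0.0917), and PDIA3 and P4HB by -0.11 and -0.24, none called. The lectin chaperones CALR and CANX changed by -0.13 and -0.14. DNAJB9, the BiP co-chaperone that holds IRE1 inactive, stood apart from HSPA5: it read 10.48 and 10.45 in DMSO, 10.68 and 10.61 with PF-03084014, 10.41 and 10.46 with dexamethasone, and 10.54 and 10.38 in the combination. Its PF-03084014 arrays were the highest, at 0.18 ± 0.0664 (adjusted p = 0.351), and the combination was at -0.01 ± 0.0664, a value whose sign turned under quantile normalization (0.026). CRELD2 gave 0.16 ± 0.0705 with PF-03084014 and 0.05 ± 0.0705 in the combination.

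HSP90B1, which encodes GRP94, the HSP90 of the ER, had the largest combination change of the 39 genes. Its probe set read 10.78 and 10.80 in DMSO, 10.34 and 9.29 with PF-03084014, 10.46 and 10.03 with dexamethasone, and 9.23 and 8.29 in the combination. The DMSO arrays agreed closely while the PF-03084014 and combination arrays each spread over about 1 log2 unit. HSP90B1 fell 4.08-fold in the combination, by 2.03 (standard error 0.452, limma adjusted p = 0.0472), against -0.98 ± 0.452 and -0.55 ± 0.452 for the single compounds, not called. The second HSP90B1 probe set gave -1.01. Of 2 further probe sets that list HSP90B1 together with MIR3652 and were not used, one gave -1.45 and the brighter gave -0.25, from 12.76 and 12.78 in DMSO to 12.63 and 12.41 in the combination. The call was lost without any single array except combination replicate 1 (-2.04 to -1.56, adjusted p 0.0559 to 0.178).

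Genes of ER degradation and translocation lay above 0 in 7 of 8 cases with PF-03084014 and in 7 of 8 in the combination, where 2 of the 8 were called, EDEM1 and SEL1L, both rises (11.9% of all genes were called). EDEM1, which recognises misfolded glycoproteins for degradation and is a target of XBP1, read 12.04 and 12.01 in DMSO, 12.40 and 12.52 with PF-03084014, 12.13 and 12.10 with dexamethasone, and 12.72 and 12.72 in the combination. The groups did not overlap and stood in the order DMSO, dexamethasone, PF-03084014, combination. EDEM1 rose 1.62-fold in the combination, by 0.70 ± 0.0472 (limma adjusted p = 0.00329), and with PF-03084014 alone, by 0.43 ± 0.0472 (adjusted p = 0.0337). Dexamethasone alone gave 0.09 ± 0.0472 (adjusted p = 0.698).

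Against dexamethasone the combination of EDEM1 was higher by 0.60 ± 0.0472 (limma adjusted p = 0.00901) and against PF-03084014 by 0.26 ± 0.0472, not called (adjusted p = 0.0629). The interaction was 0.17 ± 0.0668 (adjusted p = 0.549). The combination's call against DMSO was kept without any single array. The PF-03084014 call was lost without any DMSO, PF-03084014 or dexamethasone array (0.38 to 0.49, adjusted p 0.0884 to 0.152), and that of the combination against dexamethasone without either dexamethasone array (0.59 to 0.62, adjusted p 0.0806 to 0.0842).

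SEL1L, the scaffold of the SYVN1 ligase, read 10.84 and 10.86 in DMSO, 10.97 and 10.97 with PF-03084014, 10.79 and 10.81 with dexamethasone, and 11.08 and 11.03 in the combination. The spread between replicates was small and no group overlapped another. SEL1L rose 1.15-fold in the combination, by 0.20 ± 0.0348 (limma adjusted p = 0.0237), and by 0.25 ± 0.0348 against dexamethasone (adjusted p = 0.0219). The 3 dimmer SEL1L probe sets gave -0.69, -0.31 and 0.06, and the mean of all 4 reversed the direction, to -0.18 (adjusted p = 0.421). With arrays at a common median the change was 0.073 (adjusted p = 0.747). Both calls were lost without any DMSO, PF-03084014 or dexamethasone array (0.19 to 0.22, adjusted p 0.0632 to 0.107 against DMSO, and 0.24 to 0.26, adjusted p 0.05 to 0.138, against dexamethasone).

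The rest of this arm was not called. DERL1, a channel component for retrotranslocation, read 10.62 and 10.73 in DMSO, 10.94 and 10.97 with PF-03084014, 10.86 and 10.89 with dexamethasone, and 10.93 and 11.37 in the combination, with every treated array above both DMSO arrays (0.48 ± 0.14 in the combination, limma adjusted p = 0.096). It was called without combination replicate 1, at 0.69 (adjusted p = 0.00659). HERPUD1, a ligase partner whose promoter carries both ERSE-II and the ATF4 core, went with the chaperones: 11.51 and 11.17 in DMSO, 11.18 and 11.10 with PF-03084014, 11.11 and 11.04 with dexamethasone, and 11.07 and 11.08 in the combination. Its changes were -0.20, -0.26 and -0.26, each ± 0.112, and the combination was called without DMSO replicate 2, at -0.43 (adjusted p = 0.0404). A dim HERPUD1 probe set gave 0.85 in the combination.

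EDEM2, a mannosidase partner of the same route, read 8.80 and 8.69 in DMSO, 9.00 and 8.95 with dexamethasone, and 9.13 and 8.71 in the combination, at 0.23 ± 0.144 with dexamethasone and 0.18 ± 0.144 in the combination, and was called without combination replicate 2, at 0.39 (limma adjusted p = 0.0473). EDEM3 gave 0.28 ± 0.179 with PF-03084014, -0.15 ± 0.179 with dexamethasone and 0.06 ± 0.179 in the combination, where arrays at a common median gave -0.070. DERL2 gave 0.26 ± 0.154, 0.07 ± 0.154 and 0.19 ± 0.154. SEC61B, a subunit of the translocation channel, gave 0.16 ± 0.0466 in the combination (adjusted p = 0.0991), with both arrays above DMSO.

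With the single compounds, arrays without overlap were more frequent than calls, in these genes as in all genes. With PF-03084014 both arrays lay above both DMSO arrays in 12 of 39 genes (30.8%, against 26.9% of all genes) and below in 13 (33.3%, against 19.6%), and with dexamethasone above in 5 (12.8%, against 24.9%) and below in 15 (38.5%, against 17.7%). The combination lay above dexamethasone in 12 (30.8%, against 27.9%) and below it in 13 (33.3%, against 23.4%).

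The combination differed from each single compound in fewer genes than from DMSO. Against dexamethasone 6 of 39 were called (15.4%, against 7.23% of all genes), XBP1, SEL1L and EDEM1 higher (7.69%, against 3.26%) and EIF2AK4, TRIB3 and VLDLR lower (7.69%, against 3.97%). Their number was lower without any single array except combination replicate 1, where it was higher. In that fit many more of all genes were called as well. Against PF-03084014 2 of 39 were called (5.13%, against 2.84% of all genes), XBP1 higher and TRIB3 lower (2.56% each, against 1.09% and 1.75%). Here too the number was lower without any single array except combination replicate 1. Without that array it was higher, as was the number of all genes called.

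**Figure D5:**
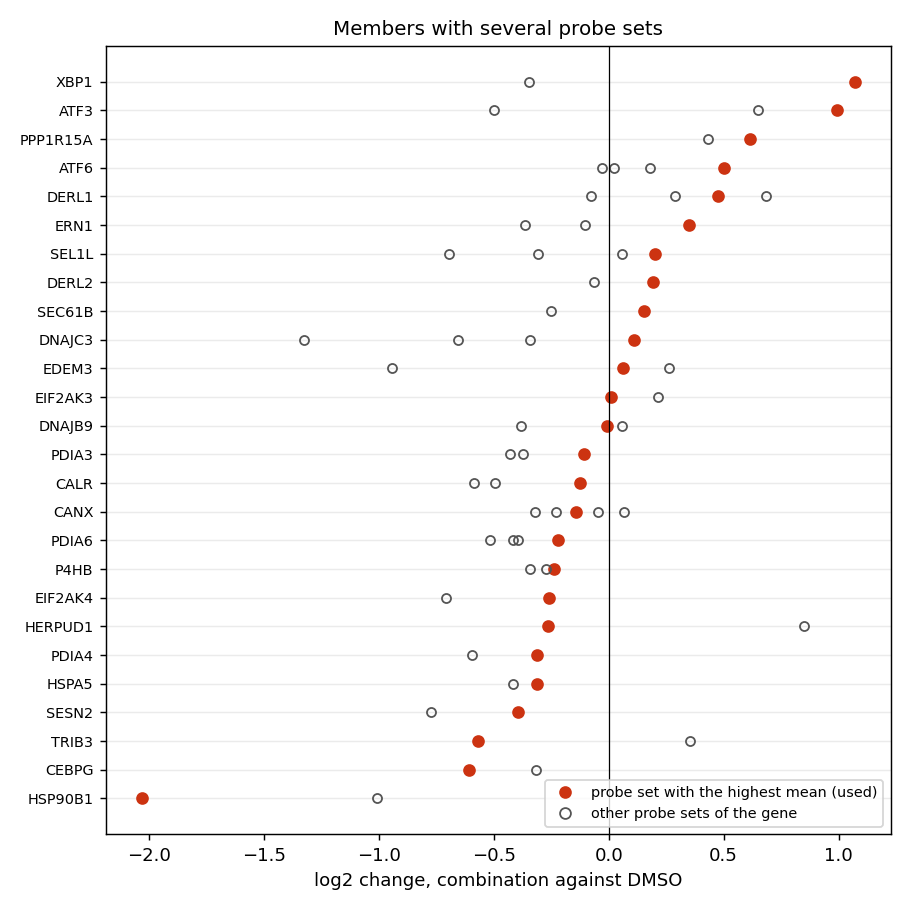
Log2 change of the combination against DMSO (horizontal axis) for every probe set assigned to 1 gene only, in the 26 genes with several of these. Filled points mark the one with the highest mean, which gives the values of the text, and open points the others. HSP90B1 probe sets that also list MIR3652, and are brighter than the one used, are not drawn. Of 46 other probe sets, 28 had the sign of the one used, and all of those of XBP1, TRIB3, HERPUD1, DNAJC3, ERN1, DERL2 and SEC61B lay on the other side of 0.

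The probe sets of a gene differed in the combination in a way that bears on several of these values. Of the 39 genes, 13 had 1 probe set, among them EDEM1, VLDLR, CEBPB, CHAC1, DDIT3 and ATF4, and their values rest on it. For CALR the other probe sets gave -0.59 and -0.49 in place of -0.13, and for DNAJC3, a BiP co-chaperone that also inhibits PERK, the others gave -1.33, -0.66 and -0.34 in place of 0.11.

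The wider pathway was read from 70 other measured genes of ER folding, degradation, eIF2 control and ATF4 targets, of which 17 were called in the combination (24.3%, against 11.9% of all genes). Of these, 6 were higher (8.57%, against 6.42%, a share near the background) and 11 lower (15.7%, against 5.52%). In the limma fit 0 of the 70 were called with PF-03084014 alone (against 0.819% of all genes) or dexamethasone alone (against 0.101%). An unadjusted limma p under 0.05 was found in 17 with PF-03084014 and 13 with dexamethasone. The same share over all genes is not given here, so these counts are not read as particular to the pathway. All 6 called among 25 other ATF4/CHOP targets fell (24.0%, against 5.52% of all genes): CBS, SLC7A11, VEGFA, PSAT1, PHGDH and MTHFD2. Called or not, 16 of the 25 were below 0 and 9 above. CBS, an enzyme of cysteine synthesis, read 7.66 and 7.32 in DMSO, 6.66 and 6.25 with PF-03084014, 7.29 and 7.12 with dexamethasone, and 5.61 and 5.64 in the combination, and fell by 1.87 (standard error 0.211, limma adjusted p = 0.00814). SLC7A11, the cystine transporter, read 10.79 and 9.51 in DMSO and 8.44 and 8.22 in the combination, and fell by 1.82 (standard error 0.412, adjusted p = 0.0496). VEGFA, the angiogenic factor, read 11.67 and 11.95 in DMSO and 10.28 and 10.53 in the combination, and fell by 1.41 (standard error 0.127, adjusted p = 0.00486).

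PSAT1 and PHGDH, enzymes of serine synthesis, fell by 1.13 and 0.76, and MTHFD2, of mitochondrial folate metabolism, by 0.74. ASNS, asparagine synthetase, went the other way without a call, at 0.40 ± 0.159 (limma adjusted p = 0.179). Among 12 other ER folding genes 2 rose (16.7%, against 6.42% of all genes) and 2 fell (16.7%, against 5.52%). The rises were TXNDC11 at 0.36 ± 0.0619 (limma adjusted p = 0.0244) and DNAJC10, an ER disulfide reductase, at 0.29 ± 0.0602 (adjusted p = 0.0386). The falls were PRDX4, an ER peroxiredoxin, by 0.90 (standard error 0.176, limma adjusted p = 0.0339) and FKBP14, an ER prolyl isomerase, by 0.64 (standard error 0.105, adjusted p = 0.0214). Among 17 other ER degradation and translocation genes OS9, SEC62 and SSR1 rose (17.6%, against 6.42% of all genes). VCP, the ATPase that pulls substrates from the ER, fell (5.88%, against 5.52%). Of 16 other sensor and eIF2 genes, 1 rose (6.25%, against 6.42% of all genes) and 2 fell (12.5%, against 5.52%). ATF6B, the relative of ATF6, rose by 0.35 ± 0.0523 (limma adjusted p = 0.0165), and EIF2B3 and NFE2L2 fell.

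The heat shock response of the cytosol was read from 11 measured genes as a comparison. In the combination 1 was called (9.09%, against 11.9% of all genes), the co-chaperone BAG3. BAG3 read 7.78 and 7.97 in DMSO, 7.57 and 7.55 with PF-03084014, 7.89 and 8.05 with dexamethasone, and 7.07 and 6.71 in the combination, and fell by 0.98 (standard error 0.163, limma adjusted p = 0.0218). With PF-03084014 alone 0 of the 11 were called by limma (against 0.819% of all genes), as with dexamethasone alone (against 0.101%). With each compound 1 had an unadjusted limma p under 0.05, HSPD1 with PF-03084014 and HSF1 with dexamethasone. The share of all genes under that value is not given here.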

How the data were processed

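Messenger RNA of 8 samples was measured on Affymetrix arrays, with total RNA labelled by a kit that starts from the 3′ end, per the labels. For each of 54675 probe sets the authors deposited a linear intensity. How these were summarised and normalized is not given in the sources used here. Of the probe sets, 41097 listed 1 gene and were used, 1801 listed several and 11777 none, and 41043 of those used matched RefSeq by gene ID.

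Intensities below 16 were set to 16 and converted to log2, and each of 19775 genes was represented by its probe set with the highest mean, with no filter on dim genes. limma 3.58.1 in R 4.3.3 was fitted to all 8 arrays with group means and eBayes with an intensity trend (4 residual degrees of freedom, median prior 1.36), two-sided, with Benjamini-Hochberg adjustment over all genes of each of 6 contrasts. Precision is limited by the number of arrays. The median standard error of the combination's change was 0.178 over all genes and 0.109 over the 39 members. The standard errors pool 1 spread over groups, and the combination arrays varied more.

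The members and gene lists were chosen with earlier results of these data known, so no list was tested. The genes named with values were those called in any contrast, the 3 with the largest change of each arm in each treatment, and fixed landmarks (HSPA5, DNAJB9, XBP1, ATF4, DDIT3, TRIB3, CHAC1, PPP1R15A, HERPUD1 and EIF2AK4). Of the other pathway genes, the 3 largest called rises and falls were named. The other genes named with a value, such as CALR, PDIA4, SESN2, CEBPG, PPP1R15B, DERL2, SEC61B, ASNS and PSAT1, were chosen after their values were seen. Alternatives were quantile normalization, a common median, a floor of 32, leaving out genes under a mean intensity of 100, the mean of all probe sets, only the groups compared, each array left out in turn, and the replicate number as a block. Quantile normalization without combination replicate 2 was added after the data were seen. Deviations from the group means of same-numbered arrays correlated at -0.010 to 0.082 over 6 pairs of groups, none over 0.1, so the replicate numbers were not taken to pair the arrays.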

Additional observations from a re-analysis of the deposited data

How the results depend on the processing

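The 2 arrays per group, dim signal in genes such as CHAC1, and combination arrays that vary more than the rest limit every call. Fitting only the groups compared left 0 members called with PF-03084014, in the combination, and in the combination against either single compound, with fewer arrays to estimate the spread. Of 17 called values of single genes and contrasts, 15 kept their direction in all 16 alternatives, and both SEL1L values turned with the mean of all probe sets. Against DMSO in the combination, VLDLR and EDEM1 were called in 15 of 16, XBP1 and TRIB3 in 14, EIF2AK4 in 9, CEBPB in 7, SEL1L in 6 and HSP90B1 in 5, and EDEM1 with PF-03084014 in 4. Unless stated, the cause of a difference was not tested.

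The number of members called with PF-03084014 was 0 under quantile normalization, with and without combination replicate 2, with arrays at a common median, with the mean of all probe sets and with the replicate block. Leaving out genes under a mean intensity of 100, which leaves fewer genes to adjust over, gave 17 in the combination and 4 against PF-03084014. Of the 17, 5 were higher and 12 lower, and 7 were called in the main setting. Those gained included ATF6, DDIT3, DERL1, HSPA5, MANF, PPP1R15A and SDF2L1. Against dexamethasone the number was 3 with arrays at a common median (1 higher and 2 lower) and 3 under quantile normalization without combination replicate 2. Against PF-03084014 it was 1 under quantile normalization, with and without combination replicate 2, 1 with the replicate block and 0 with the mean of all probe sets. In the replicate block fit, where the numbers did not pair the arrays, the combination had 12 members called and the combination against dexamethasone 7. Those gained in the combination against DMSO included ATF6, CHAC1, DDIT3 and MANF.

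The median over the members with arrays at a common median was -0.25 for the combination against DMSO, -0.18 when it was set against dexamethasone, -0.25 when set against PF-03084014, and -0.19 for the interaction, where the median over all genes shifted by -0.13, -0.15, -0.13 and -0.15. The interaction median was 0.0062 under quantile normalization and 0.062 without combination replicate 2 as well, where the median against PF-03084014 was -0.046.

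With single arrays left out, members called ranged from 0 to 1 with PF-03084014, 0 to 0 with dexamethasone, 4 to 18 in the combination against DMSO, 0 to 1 in the interaction, and for the combination 0 to 14 set against dexamethasone and 0 to 10 set against PF-03084014. The medians ranged, in the same order, from -0.024 to 0.022, -0.080 to -0.043, -0.17 to -0.052, -0.086 to 0.048, -0.074 to 0.010 and -0.13 to -0.049.

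Values of single genes that changed sign were all uncalled except SEL1L. With arrays at a common median these were PPP1R15A with dexamethasone (0.016), EIF2AK3 (-0.12) and EDEM3 (-0.070) in the combination. With the mean of all probe sets they were ATF3 (-0.083), TRIB3 (0.0039), HERPUD1 (0.097), SEL1L (-0.11) and EDEM3 (-0.12) with PF-03084014, ERN1 (-0.056), EIF2AK4 (-0.059), ATF3 (-0.031) and HERPUD1 (0.44) with dexamethasone, ERN1 (-0.040), HERPUD1 (0.29), SEL1L (-0.18) and EDEM3 (-0.21) in the combination, and SEL1L against dexamethasone (-0.041). Under quantile normalization they were EIF2AK4 (-0.017) and PPP1R15A (0.0062) with dexamethasone and DNAJB9 in the combination (0.026). Without combination replicate 2 as well, they were EIF2AK4 (-0.017), PPP1R15A (0.0063), DNAJB9 (0.085) and EDEM3 (-0.17). Leaving out single arrays gave DNAJB9 -0.090 to 0.079, EDEM2 -0.031 to 0.39 and EDEM3 -0.18 to 0.30 in the combination, ATF6 -0.16 to 0.12 with PF-03084014, and with dexamethasone HSPA5 -0.29 to 0.010, EIF2AK4 -0.041 to 0.047, ATF3 -0.20 to 0.47, PPP1R15A -0.048 to 0.035, ATF4 -0.077 to 0.0029 and TRIB3 -0.064 to 0.0071.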
